A study of Mus musculus with 6 samples.

Results

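The genes described here are fibroblast growth factor (FGF) ligands and receptors, with Spry2, an intracellular feedback inhibitor of receptor tyrosine kinase signalling. They were chosen by name, with earlier results of these data known. A probe set was taken as a member when the platform annotation pairs it with 1 of 10 symbols. The array held 12 such probe sets for 9 of the 10 genes, out of 8251 named genes in all, and the annotation used here pairs no probe set with Spry2. RNA came from skin keratinocytes of K15-EGFP transgenic mice, in which a keratin 15 promoter drives enhanced green fluorescent protein (EGFP). One group was the EGFP-high cells (3 samples) and the other the EGFP-negative cells (3 samples). Both were sorted by flow cytometry as α6 integrin positive, and both carried the transgene. Each sample was read on 1 Affymetrix mouse array. The labels give no age, no hair cycle stage and no statement on pooled animals, and do not say whether replicates came from separate animals. A p-value below therefore refers to the variation among the 6 arrays, which may be technical in part.

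FGFs are secreted proteins that bind tyrosine kinase receptors together with heparan sulfate chains on the cell surface, and the receptors signal through adaptor proteins to the Ras and MAP kinase pathway and to phosphoinositide 3-kinase. In skin, Fgf7 and Fgf10 are made mainly by mesenchymal cells and act on an epithelial splice form of Fgfr2. Fgf18 is known from the hair follicle in the resting phase, and Fgf5 from the growing follicle, where it promotes the end of growth. Keratin 15 promoter activity marks the bulge, the part of the follicle that houses its stem cells, and α6 integrin is held by basal keratinocytes at the basement membrane. The comparison asks how FGF genes differ between bulge-enriched cells and other basal keratinocytes.

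A few facts of the arrays bear on these values. The authors deposited linear intensities already scaled to a common level, and array medians lay between 69.75 and 76.2. The number of arrays limits the precision. The background on each array was read from 15 probe sets for bacterial transcripts, whose 95th percentile lay between 28.25 and 43.95 on EGFP-high arrays and between 25.9 and 32.64 on EGFP-negative arrays. The bulge marker Cd34 read 1339 to 1579 in EGFP-high samples and 29.4 to 40.9 in EGFP-negative cells on one probe set, and 1116 to 1417 in EGFP-high samples against 32.5 to 43.2 in EGFP-negative cells on the other. Of 6 basal keratinocyte genes checked, 4 were above the control percentile on all 6 arrays. Krt14 and Krt15 were not above it on any array, and Krt5 was so on 1, so the sort cannot be checked through Krt15 itself. Itga6, which encodes the α6 integrin used in the sort of both groups, read 485.1, 405.6 and 585.3 in EGFP-high samples against 1178.1, 1050 and 1371.4 in EGFP-negative cells, and was lower on every EGFP-high array (log2 -1.26, limma adjusted p = 0.00449). On a principal component that separated the groups, EGFP-high replicate 1 had a score of 10.1 and the other EGFP-high arrays 24.3 and 29.5, against -29.1 to -16.0 for EGFP-negative arrays. EGFP-high replicate 2 had the highest ratio of the 3′ to the 5′ actin control probe set, 2.03, against 1.42 and 1.51 on the other EGFP-high arrays and 1.26 to 1.59 on EGFP-negative arrays. The part of this ratio in any result below was not tested.

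The ligands Fgf18 and Fgf1 and the receptor Fgfr1 were higher in EGFP-high cells. The receptors Fgfr2 and Fgfr3 gave lower mean intensities on all 5 of their probe sets, none of which passed the threshold. The ligands Fgf2, Fgf5, Fgf7 and Fgf10 read near or below the bacterial controls in both groups. In all, 3 of the 8 member probe sets that passed the filter on low values were called, all higher, where 5.19% of the 7453 tested probe sets were called, 3.02% higher and 2.17% lower (limma, Benjamini-Hochberg adjusted p at most 0.05). Fgf18 and Fgf1 passed the filter only through their EGFP-high values, and the list was chosen with earlier results of these data known. For both reasons this count is a description and not a test of the family. Without the filter all 12 member probe sets were tested and 3 were called, against 2.63% of 12422 probe sets, and the median log2 difference over the 12 was -0.11. Among the tested 8, the median was -0.19, against -0.00167 over all tested probe sets. At an unadjusted p under 0.05 there were 4 of the 8, against 17.1% of all tested probe sets. Groups did not overlap on 4 of the 8, against 22.7% of all tested probe sets. The replicate numbers in the titles were taken to pair the arrays, and with the number as a block the same 3 were called, where 10.4% of all tested probe sets were.

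**Figure D1:**
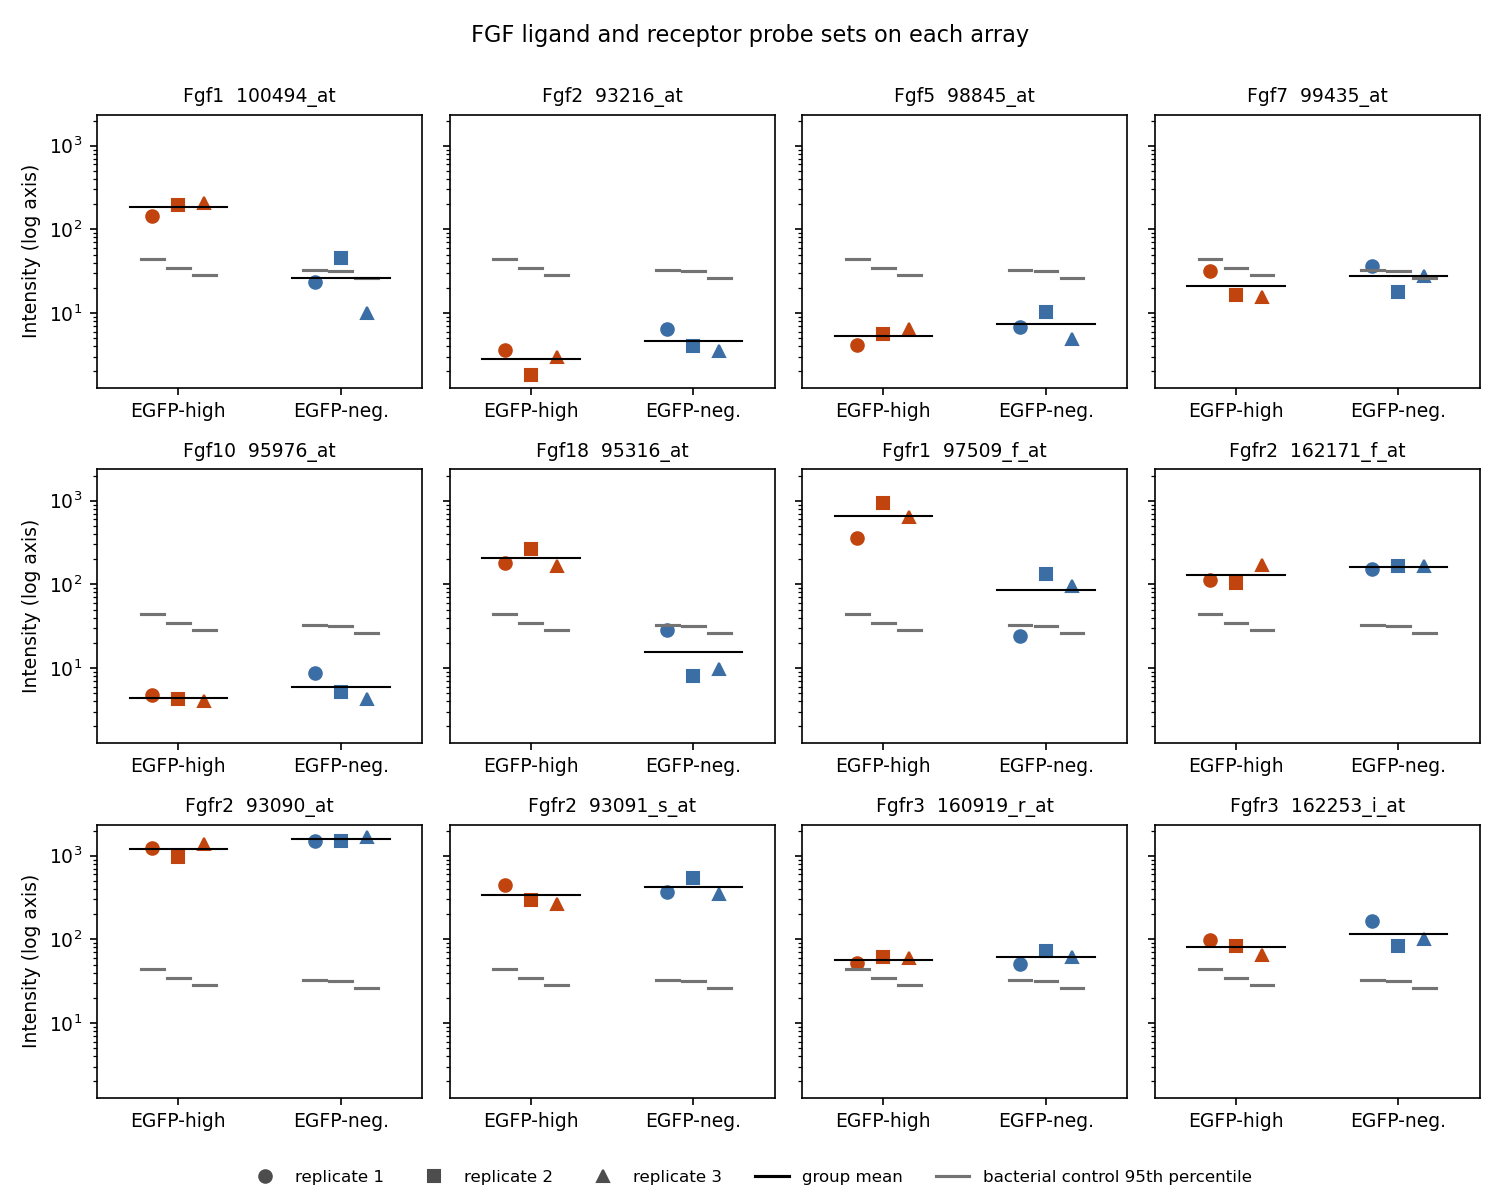
Intensity on a log axis for each of the 12 member probe sets, with EGFP-high arrays left and EGFP-negative arrays right. Marker shape gives the replicate number, black lines the group means, and short grey lines the 95th percentile of the bacterial control probe sets on each array. Fgf1, Fgf18 and Fgfr1 have separate groups, while Fgf2, Fgf5 and Fgf10 lie below the grey lines on all 6 arrays.

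Fgf18, a secreted ligand that acts mainly on the mesenchymal receptor splice forms and on Fgfr3, rose in EGFP-high cells. Its probe set, 95316_at, read 180.4, 268 and 166.1 on EGFP-high replicates 1, 2 and 3, and 28.8, 8.1 and 9.7 on EGFP-negative replicates 1, 2 and 3. The groups were far apart, with every EGFP-high array above its bacterial control percentile and no EGFP-negative array above it. The means were 205 ± 55.2 in EGFP-high samples and 15.5 ± 11.5 in EGFP-negative cells (SD, n = 3 each). The log2 difference, EGFP-high minus EGFP-negative on the scale log2(intensity + 19.3), was 2.71 (SE 0.28, limma adjusted p = 0.000866). Within the numbers 1, 2 and 3 it was 2.05, 3.39 and 2.68. Because EGFP-negative cells were at background, the size depends on how low values are treated. With values below the bacterial control percentile raised to it, a choice made after seeing the data, Fgf18 was at least 6.71-fold higher in EGFP-high cells (log2 2.75). With a pseudocount 4 times as large the log2 difference was 1.59, and with 1 that was 25% as large it was 3.47.

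The stretch before the annotated start of Fgf18 is shown beside that of Fgf7, a ligand not above background in EGFP-high cells, and that of Fgfr2, the receptor that was bright in both groups. The sequences are from RefSeq's GRCm38.p6 table, which matched 8 of the 10 members, and each gives the 250 bases before the start, 5′ to 3′ on the gene's strand. Capitals mark matches, on either strand, to the GC box GGGCGG or the TCF and LEF core CTTTG. The TATA box letters TATAAA were searched as well. The motifs do not overlap each other in these 3 stretches.
Fgf18: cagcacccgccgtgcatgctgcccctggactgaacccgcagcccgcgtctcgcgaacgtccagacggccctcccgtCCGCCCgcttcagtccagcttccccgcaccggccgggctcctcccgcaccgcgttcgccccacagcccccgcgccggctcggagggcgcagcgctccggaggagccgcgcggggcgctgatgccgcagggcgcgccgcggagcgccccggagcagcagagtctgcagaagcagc
Fgf7: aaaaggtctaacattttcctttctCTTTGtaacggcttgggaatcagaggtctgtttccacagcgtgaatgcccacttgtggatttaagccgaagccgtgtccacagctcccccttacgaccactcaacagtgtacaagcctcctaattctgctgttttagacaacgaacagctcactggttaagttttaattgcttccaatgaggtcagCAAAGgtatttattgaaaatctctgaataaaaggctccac
Fgfr2: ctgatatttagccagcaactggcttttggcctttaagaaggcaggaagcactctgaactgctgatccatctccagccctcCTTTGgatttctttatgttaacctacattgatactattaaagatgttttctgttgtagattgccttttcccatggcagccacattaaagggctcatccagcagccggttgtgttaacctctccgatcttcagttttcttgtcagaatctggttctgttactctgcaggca
The Fgf18 stretch lies at chr11:33147401-33147650 on the minus strand, the Fgf7 stretch at chr2:126034408-126034657 on the plus strand and the Fgfr2 stretch at chr7:130266809-130267058 on the minus strand. The Fgf18 stretch was 77.2% G and C, and 97.4% of the 32851 stretches in the table had a lower share. The Fgf7 and Fgfr2 stretches were 43.6% and 44% G and C, against a median of 52.4% over the table. Fgf18 held 1 GC box match and 0 matches to CTTTG, Fgf7 held 0 and 2, and Fgfr2 held 0 and 1. Among all stretches 32.7% held a GC box match, 48.6% a CTTTG match and 12.4% a TATAAA match. A high share of G and C and a GC box match were not particular to Fgf18. The stretches of Fgf5, Fgf2 and Fgf10, ligands at background, were 70.8%, 62.4% and 61.2% G and C and held 1 GC box match each. Of the 2 Fgfr3 stretches, 1 was 66.8% G and C with 3 GC box matches, the other 72.8% with 2, and both held 0 matches to CTTTG. The matched members do not include Fgf1 and Fgfr1. None of the 3 printed stretches held TATAAA. A match is a description of the letters and not a binding site.

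Fgf1, a ligand that binds all FGF receptors and lacks a classical secretion signal, also rose. Probe set 100494_at read 145.4, 196.8 and 206.1 on EGFP-high replicates 1, 2 and 3, and 23.4, 45.1 and 9.9 on EGFP-negative replicates 1, 2 and 3. The lowest EGFP-high array stood well above the highest EGFP-negative array. Only EGFP-negative replicate 2 exceeded its bacterial control percentile among the 3 EGFP-negative arrays. The mean was 183 ± 32.7 in EGFP-high samples and 26.1 ± 17.8 in EGFP-negative cells (SD, n = 3 each), a log2 difference of 2.21 (SE 0.30, limma adjusted p = 0.00307). Within the numbers it was 1.95, 1.75 and 2.95. It was 1.34 with a pseudocount 4 times as large, so the size of this difference also depends on the low EGFP-negative values.

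The other 4 ligands read at or near the bacterial control probe sets. Fgf2, a broadly acting mitogen without a classical secretion signal, read 1.8 to 3.6 in EGFP-high samples and 3.5 to 6.5 in EGFP-negative cells. Fgf5 read 4.1 to 6.4 in EGFP-high samples against 4.9 to 10.2 in EGFP-negative cells. Fgf10 read 4 to 4.7 in EGFP-high samples against 4.2 to 8.7 in EGFP-negative cells. These 3 were below the bacterial control percentile on all 6 arrays. Fgf7, also called keratinocyte growth factor, read 31.6, 16.4 and 15.5 on EGFP-high arrays, and 36.6, 18 and 27.3 on EGFP-negative arrays. It exceeded the control percentile on EGFP-negative replicates 1 and 3 by a small margin and on no EGFP-high array. All 4 were below the filter on low values, a mean near an intensity of 44.5. Without the filter none was called (limma adjusted p 0.691 for Fgf2, 0.782 for Fgf5, 0.799 for Fgf7 and 0.784 for Fgf10). A probe set at background gives an upper limit on the signal and no order between the groups.

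Fgfr1, a receptor widely expressed in mesenchymal tissues that binds Fgf1 and Fgf2, rose in EGFP-high cells. Probe set 97509_f_at read 357.8, 942.5 and 646.9 on EGFP-high replicates 1, 2 and 3, and 23.8, 134 and 96.1 on EGFP-negative replicates 1, 2 and 3. The groups did not overlap, and replicate 1 was the lowest array of each group. EGFP-negative replicate 1 was below its bacterial control percentile, and the other 5 arrays were above theirs. The means were 649 ± 292 in EGFP-high samples and 84.6 ± 56.0 in EGFP-negative cells (SD, n = 3 each), a log2 difference of 2.77 (SE 0.48, limma adjusted p = 0.0104). Within the numbers 1, 2 and 3 the log2 difference was 3.13, 2.65 and 2.53. Without EGFP-high replicate 3 it was 2.72 and no longer passed (adjusted p = 0.0572, in a range of 6.92e-05 to 0.0572 over 15 alternatives). This is the only Fgfr1 probe set, and its type can share signal with related transcripts.

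Markers of fibroblasts, which also express Fgfr1, were read beside these values. Of 11 fibroblast genes, 10 were above the bacterial control percentile on at least 1 array and 5 on all 6. Their summed intensity, taken over the brightest probe set of each gene, ranged from 2059 to 2347 in EGFP-high samples and from 1629 to 2013 in EGFP-negative cells. Of 11 tested fibroblast probe sets, 3 were higher and 1 lower, where 5.19% of all tested probe sets were called. At an unadjusted p under 0.05, 5 were higher and 1 lower, and the groups did not overlap on 7 of the 11, against 17.1% and 22.7% of all tested probe sets. The collagen chain Col1a2 read 76.7, 237.2 and 171.7 in EGFP-high samples against 15.3, 12.5 and 15.1 in EGFP-negative cells on one probe set (log2 2.32, limma adjusted p = 0.00489). Its other probe set, the brighter one and so the one in the sum, had a log2 difference of -0.03. The collagen chain Col1a1 read 32.8, 67.9 and 46.7 in EGFP-high samples against 6.9, 7.5 and 5.4 in EGFP-negative cells on its dimmer probe set. That probe set was below the filter, and its groups did not overlap. On the brighter Col1a1 probe set the groups did not overlap either (log2 0.49, adjusted p = 0.397). The matrix protein Fbln1 was called higher on 2 of its 3 tested probe sets (log2 1.96 and 1.04). On the remaining tested Fbln1 probe set the groups did not overlap (log2 0.38, adjusted p = 0.274). Nor did they overlap on Fn1 (log2 0.41, adjusted p = 0.284). The surface antigen Thy1 was lower, also without overlap (log2 -1.51). Pdgfra was not called on its tested probe set (log2 -0.29, adjusted p = 0.504), and Pdgfrb was at background on all arrays. Col3a1 read 17.1 to 38 in EGFP-high samples and 7.3 to 35.2 in EGFP-negative cells on its brightest probe set, and the matrix proteoglycan Dcn read 25.4 to 57.9 in EGFP-high samples and 36.9 to 66.7 in EGFP-negative cells. Whether fibroblast RNA has a part in the values of Fgfr1, Fgf1 or Fgf18 was not tested. In bulk samples, a change in the share of a cell type and a change in RNA per cell cannot be told apart.

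Other cell types were read in the same way. The summed dermal papilla markers ranged from 224 to 252 in EGFP-high samples and from 191 to 261 in EGFP-negative cells, with 0 of 2 tested probe sets called by limma and 0 at an unadjusted p under 0.05. The endothelial sums were 385 to 491 in EGFP-high samples and 411 to 489 in EGFP-negative cells. Of 2 tested probe sets, 0 were called by limma and 0 had an unadjusted p under 0.05. Of the 8 genes, 5 exceeded the bacterial control percentile on at least 1 array. Eng and Pecam1 did so on all arrays, and Kdr, below the filter, on 2 EGFP-high arrays and no EGFP-negative array. Emcn and Flt1 did so on 1 array of each group. Eng was lower in EGFP-high samples without overlap (log2 -0.36, adjusted p = 0.331), and Pecam1 overlapped (log2 0.15, adjusted p = 0.822). Cdh5, Tek and Tie1 were at background on all arrays. The leukocyte sums were 487 to 640 in EGFP-high samples and 305 to 590 in EGFP-negative cells, with 0 of 3 tested probe sets called by limma and 0 at an unadjusted p under 0.05. Below the filter, Cd3d on one probe set (18.6, 22.4 and 28.7 against 2.2, 7.2 and 7.6) and Cd3e (27.7, 28.7 and 135.4 against 20.8, 19.5 and 21.7) were higher in EGFP-high samples without overlap. Each exceeded the control percentile on 1 EGFP-high array and no EGFP-negative array. H2-Aa, also below the filter, had a lower EGFP-high mean, with overlap. The melanocyte sums were 616 to 716 in EGFP-high samples and 457 to 500 in EGFP-negative cells, and 1 of 4 tested probe sets was called, the transcription factor Mitf (log2 1.13, limma adjusted p = 0.0147). Not called were Pmel (log2 0.49, adjusted p = 0.479), Sox10 (log2 0.31, adjusted p = 0.468) and Dct (log2 -0.07, adjusted p = 0.89). Tyr, Tyrp1, Kit and Ednrb had no probe set above the filter. Over all tested probe sets, 5.19% were called and 17.1% had an unadjusted p under 0.05.

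Fgfr2, the receptor that in epithelia takes up Fgf7 and Fgf10 signals, was bright in both groups and did not pass the threshold on any of its 3 probe sets. Probe set 93090_at read 1240.2, 962.7 and 1373.4 on EGFP-high replicates 1, 2 and 3, and 1505.8, 1506.1 and 1676.6 on EGFP-negative replicates 1, 2 and 3. Here the groups did not overlap, and all 3 EGFP-high arrays were lower. The means were 1192 ± 209.5 in EGFP-high samples and 1563 ± 98.5 in EGFP-negative cells (SD, n = 3 each), a log2 difference of -0.40 with a 95% interval from -0.78 to -0.01 before adjustment (limma adjusted p = 0.274). On 93091_s_at the intensities were 446.7, 298.2 and 265.8 in EGFP-high samples against 367.5, 546.9 and 346.8 in EGFP-negative cells, and the groups overlapped (log2 -0.31, interval -0.85 to 0.23, adjusted p = 0.592). On 162171_f_at they were 112.1, 103.6 and 171.5 in EGFP-high samples against 153.9, 165.6 and 163.6 in EGFP-negative cells, again with overlap (log2 -0.31, interval -0.76 to 0.14, adjusted p = 0.505). Probe set 162171_f_at is of the same type as the Fgfr1 probe set, which can share signal with related transcripts. The files do not say which splice form of Fgfr2 each probe set reads. These intervals cover falls of up to 0.85 on the log2 scale and rises of up to 0.23, and they lie apart from the Fgfr1 interval of 1.69 to 3.85.

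Fgfr3, a receptor known chiefly for restraining cartilage growth, was above background on all 6 arrays and did not pass the threshold. Probe set 162253_i_at read 97.7, 83.4 and 64.5 in EGFP-high samples against 164.5, 83.2 and 102.1 in EGFP-negative cells (log2 -0.39, interval -0.96 to 0.17, limma adjusted p = 0.496). The groups overlapped, and the highest value belonged to EGFP-negative replicate 1. Probe set 160919_r_at read 52, 60.9 and 59.2 in EGFP-high samples against 50.6, 72.6 and 62.2 in EGFP-negative cells (log2 -0.07, interval -0.54 to 0.39, adjusted p = 0.901). Neither probe set is of the standard type, and 160919_r_at is of a type built under relaxed probe selection.

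**Figure D2:**
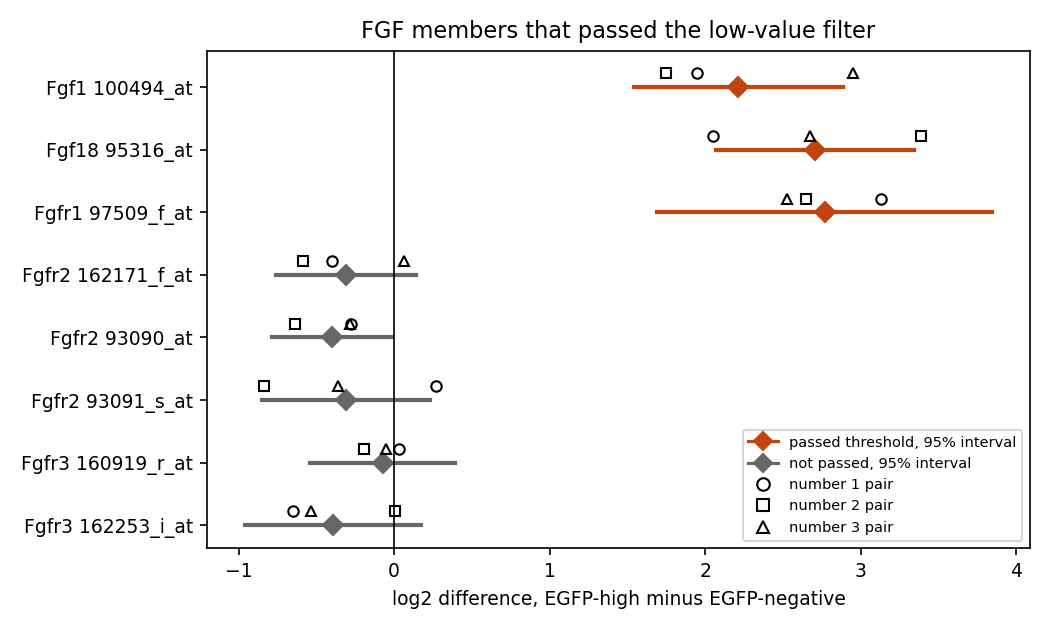
The log2 difference, EGFP-high minus EGFP-negative, for the 8 member probe sets that passed the filter on low values. Diamonds with bars give the limma estimate and its unadjusted 95% interval, and open symbols the differences within each replicate number. Fgf1, Fgf18 and Fgfr1 lie at 2.21 to 2.77, and the 5 probe sets of Fgfr2 and Fgfr3 lie between -0.40 and -0.07.

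The genes whose profiles over the 6 arrays were most like the called members were found by the root mean square difference between log2 values after each probe set's mean was removed. Nearest to Fgf18 was the homeobox gene Hoxd8 (0.30 log2 units), at 403 in EGFP-high samples and 38.7 in EGFP-negative cells, then the actin crosslinker Actn1 (0.34) and Sncg (0.34). Nearest to Fgf1 were the secreted protein Dkk3 (0.29), the forkhead factor Foxp1 (0.29) and Sgce (0.29). Nearest to Fgfr1 was Ccn2, a matrix-associated growth factor, at 1855 in EGFP-high samples and 231 in EGFP-negative cells (0.39), then Fbln1 (0.48) and the endocytic adaptor Dab2 (0.48). The measure covers 6 arrays in 2 groups.

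The wider pathway was read from 78 listed genes outside the members, of which 54 were on the array with 70 probe sets. Of 48 tested probe sets, 1 was higher and 2 lower, a share of calls that can be set beside the 5.19% of all tested probe sets, and the median log2 difference was 0.04. The called genes were Fgfbp1, Gpc1 and Pik3r1.

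In the list of binding proteins, co-receptors and heparan sulfate genes, 0 of 12 tested probe sets were higher and 2 lower by limma. At an unadjusted p under 0.05, 1 was higher and 3 lower. Of all tested probe sets, 3.02% were called higher and 2.17% lower, and 17.1% had an unadjusted p under 0.05. Fgfbp1, a secreted carrier that releases FGFs from heparan sulfate, read 298.7, 132.2 and 164.5 on EGFP-high replicates 1, 2 and 3, and 686.9, 504.3 and 521.2 on EGFP-negative replicates 1, 2 and 3. Each EGFP-high array was below every EGFP-negative array (log2 -1.50, SE 0.27, limma adjusted p = 0.0131). Without EGFP-high replicate 3 its adjusted p was 0.0694, in a range of 0.000994 to 0.0694 over 15 alternatives. Gpc1, a glypican that carries heparan sulfate at the cell surface, read 275.3, 217.7 and 266.3 in EGFP-high samples against 543.6, 562 and 397 in EGFP-negative cells. It was lower on all EGFP-high arrays (log2 -0.92, SE 0.18, adjusted p = 0.0216), and its call was lost without any of 4 arrays, namely EGFP-high replicates 2 and 3 and EGFP-negative replicates 1 and 2 (adjusted p up to 0.0905), and without both arrays of number 1 (adjusted p = 0.0641), in a range of 0.0113 to 0.0905 over 15 alternatives. The basement membrane proteoglycan Hspg2 (log2 0.57, adjusted p = 0.274) and the glypican Gpc3 (log2 -0.55, adjusted p = 0.187) did not pass. The receptor Fgfr4 was at background on all arrays.

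In the list of signal transduction genes, 1 of 19 tested probe sets was higher and 0 lower by limma, and 1 higher and 0 lower at an unadjusted p under 0.05. Of all tested probe sets, 5.19% were called and 17.1% had an unadjusted p under 0.05. Pik3r1, a regulatory subunit of phosphoinositide 3-kinase, read 308.2, 258.8 and 441.8 on EGFP-high replicates 1, 2 and 3, and 129.6, 97.1 and 136.5 on EGFP-negative replicates 1, 2 and 3. The groups were well separated (log2 1.32, SE 0.22, adjusted p = 0.00902). The GTPase Nras (log2 -0.38, adjusted p = 0.319) and the adaptor Gab1 (log2 -0.37 and -0.29, adjusted p = 0.508 and 0.492) did not pass.

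In the list of feedback and target genes, 0 of 14 tested probe sets were called by limma, with 7 above and 7 below 0. At an unadjusted p under 0.05 there were 5. Of all tested probe sets, 5.19% were called and 17.1% had an unadjusted p under 0.05. The feedback inhibitor Spred2 read 132.3, 189.1 and 233.2 in EGFP-high samples against 243, 299.8 and 334 in EGFP-negative cells. The EGFP-high arrays were all lower (log2 -0.63, adjusted p = 0.166), and with the replicate number as a block Spred2 passed (adjusted p = 0.0285, in a range of 0.0285 to 0.359 over 15 alternatives). The cyclin Ccnd1 (log2 -0.62, adjusted p = 0.194; 0.0415 without EGFP-high replicate 2, in a range of 0.0415 to 0.449 over 15 alternatives) did not pass, nor did its dimmer probe set, on which the groups did not overlap (log2 -0.46, adjusted p = 0.239). The transcription factor Fos did not pass on its dimmer probe set (log2 0.58, adjusted p = 0.277) or on its brighter one (log2 -0.04, adjusted p = 0.946). The ETS factor Etv4 did not pass on its dimmer probe set (log2 0.57, adjusted p = 0.26). On the brighter probe set Etv4 had a log2 difference of 0.19 and its groups overlapped (adjusted p = 0.642). Spry4, a relative of Spry2 that was named after its values were seen, read 196.2, 171.6 and 162.3 in EGFP-high samples against 189.4, 157.7 and 107.5 in EGFP-negative cells and overlapped between groups (log2 0.22, adjusted p = 0.662).

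Among the other ligands, 3 probe sets of 2 genes passed the filter and 0 were called by limma, with 0 at an unadjusted p under 0.05. The shares over all tested probe sets were 5.19% and 17.1%. Fgf11, an intracellular FGF homologue, had log2 differences of 0.31 and -0.16 on its probe sets (adjusted p = 0.45 and 0.702). Fgf4 read 258.9 to 311.3 in EGFP-high samples and 265.1 to 290.5 in EGFP-negative cells (log2 0.07, adjusted p = 0.872). The other 9 listed ligands on the array were below the filter.

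**Figure D3:**
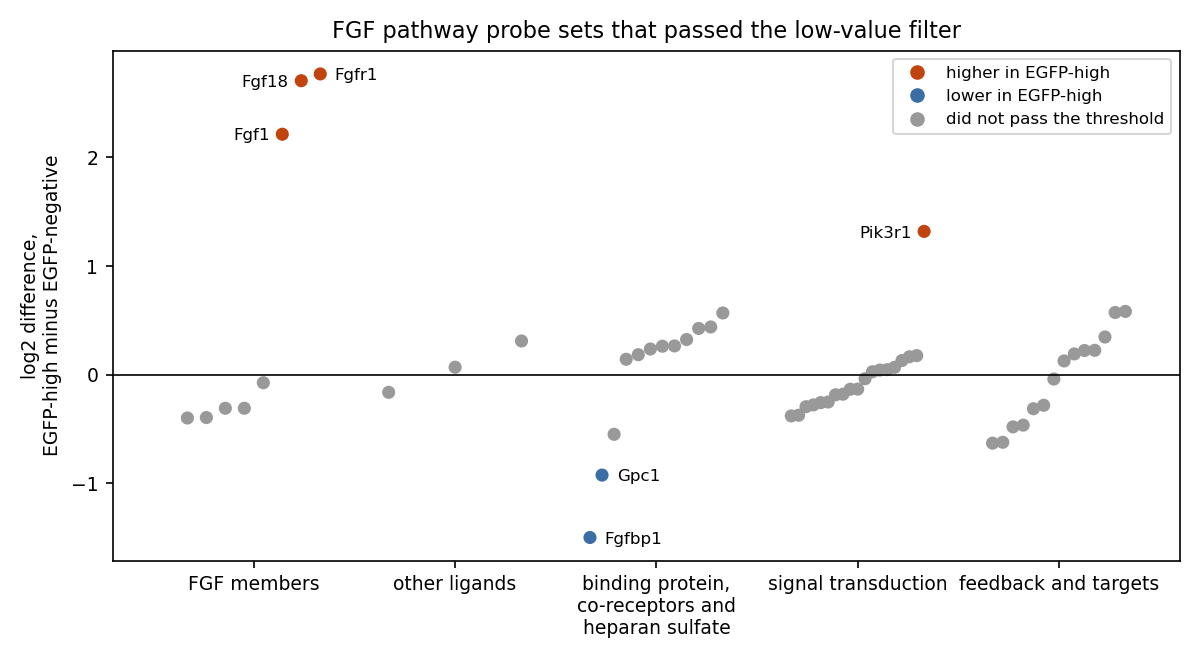
The log2 difference, EGFP-high minus EGFP-negative, of each FGF pathway probe set that passed the filter on low values, by list. Red points were higher and blue points lower at an adjusted p of at most 0.05, and grey points did not pass. The members Fgf1, Fgf18 and Fgfr1 lie above 2, and of the other 48 probe sets Pik3r1 is higher and Fgfbp1 and Gpc1 are lower.

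The 3 called members were recomputed with other pseudocounts, filters and normalizations and with arrays left out, as the plot of alternatives shows. Each kept a positive log2 difference wherever it was tested. The value moved most with the pseudocount for Fgf18 and Fgf1, whose EGFP-negative arrays were dim. Fgfr1 moved about as much with the arrays left out, from 2.23 without EGFP-negative replicate 1 to 3.14 without EGFP-negative replicate 2, as with the pseudocount, from 2.15 to 3.04.

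**Figure D4:**
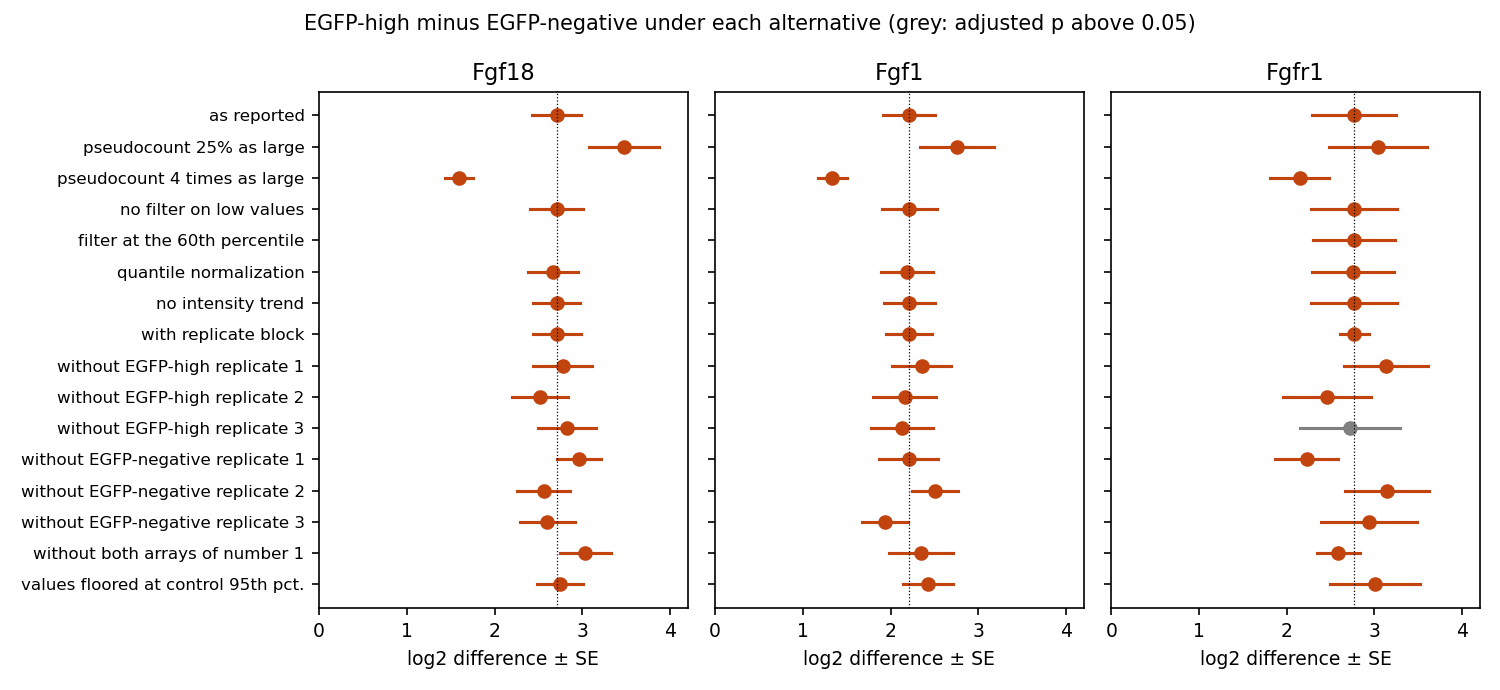
The log2 difference ± SE, EGFP-high minus EGFP-negative, for Fgf18, Fgf1 and Fgfr1 as reported (top row, dotted line) and under each alternative. Fgfr1 without EGFP-high replicate 3 is the only grey point, at 2.72, and the pseudocounts move Fgf18 between 1.59 and 3.47. Fgf18 and Fgf1 have no point with the filter at the 60th percentile, where they were not tested.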

How the data were processed

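The deposited table holds linear intensities, 1 value for each of 12488 rows of an Affymetrix mouse array in every sample. The 2% trimmed mean was near 150.1 in each column, so the arrays had been scaled before deposit. How the authors summarised the probes is not given in the sources used here. The 66 control rows were left out. Of 12422 probe sets, 10833 had 1 symbol in the platform annotation, 396 several and 1193 none; 10817 were looked up by Entrez identifier in a RefSeq table of GRCm38.p6 and 0 symbols changed.

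Values were analysed as log2(intensity + 19.3), where 19.3 is the 25th percentile of deposited values, which understates the change of dim genes. Probe sets with a mean above the 40th percentile (7453) were tested with limma 3.58.1 in R 4.3.3 (lmFit, eBayes with trend), two-sided, with Benjamini-Hochberg adjustment and a threshold of 0.05. The fit had no replicate term, so standard errors, intervals and p-values leave out the replicate number unless the block is named. With the block the SE was 0.27 for Fgf18, 0.26 for Fgf1 and 0.16 for Fgfr1, against 0.28, 0.30 and 0.48 without it. Deviations of same-number arrays correlated at 0.336, 0.368 and 0.305, all above the limit of 0.1, so numbers were taken to pair the arrays; the pairing comes from the titles and this correlation. The script was tested on simulated data.

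Every member probe set is reported. Of the other pathway genes those called are named, and up to 4 per list of largest difference. The members, lists and tests were chosen with earlier results of these data known. Alternatives covered the pseudocount, floors, filters, quantile normalization, the variance trend, the replicate block and arrays left out.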

Additional observations from a re-analysis of the deposited data

How the results depend on the processing

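Fgf18, Fgf1 and Fgfr1 kept their direction under every alternative that tested them, and their call under all of these but one: Fgfr1 lost it without EGFP-high replicate 3 (log2 2.72, limma adjusted p = 0.0572). Their log2 differences ranged from 1.59 to 3.47, from 1.34 to 2.76 and from 2.15 to 3.14. Fgfr2 passed under no alternative on any probe set, with adjusted p from 0.0855 upward, and neither did Fgfr3. The sign of Fgfr3 on 160919_r_at turned to 0.021 without EGFP-negative replicate 2, in a range of -0.18 to 0.021 over single arrays left out; the cause was not tested. With a filter at the 60th percentile 1 member was called, Fgfr1, since Fgf18 and Fgf1 were then not tested. A floor at the 95th percentile of all control rows lay between 4928 and 8546, because those rows include bright spiked and housekeeping controls. It left 70 probe sets in the test, 4 called, with 0 members tested and hence 0 called. Of 3 other pathway probe sets tested there, 0 were called by limma and 0 had an unadjusted p under 0.05. This floor says nothing about the members. With the replicate block 778 of all tested probe sets were called against 387, with 3 members and 4 other pathway probe sets, and apart from Spred2 the block changed no call among the genes named here from the members and the pathway. Leaving out single arrays gave 191 to 499 calls over all probe sets (191 if EGFP-high replicate 3 was left out and 225 if EGFP-high replicate 2 was), 2 to 3 among members and 1 to 3 among other pathway probe sets, 1 of them without EGFP-high replicate 3. Without both arrays of number 1, chosen after seeing the data, 3 members and 2 other pathway probe sets were called. Averaging a gene's probe sets left 3 member genes called, but Fgf1, Fgf18 and Fgfr1 have 1 probe set each, so averaging could not change their values. Probe sets near the bacterial controls limit what can be said of Fgf2, Fgf5, Fgf7 and Fgf10.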

Other observations

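A few transcripts induced by the MAP kinase pathway varied widely among the replicate numbers of both sorted groups. These genes were picked after their values were seen. Dusp6, a phosphatase that inactivates ERK kinases, read 78.3, 260.9 and 374.2 on EGFP-high replicates 1, 2 and 3, and 89.9, 170.5 and 307.5 on EGFP-negative replicates 1, 2 and 3 (log2 0.22, limma adjusted p = 0.88). Replicate 1 was the lowest array of both groups. The immediate early factor Egr1 read 1594.1, 5229.6 and 6137.9 in EGFP-high samples against 1146.5, 2767.3 and 7779.2 in EGFP-negative cells on its brighter probe set (log2 0.35, adjusted p = 0.857). The AP-1 subunit Fosl1 read 39.4, 50.7 and 113.6 in EGFP-high samples against 11, 81.1 and 468.2 in EGFP-negative cells (log2 -0.48, adjusted p = 0.832). On these 3 probe sets number 1 was lowest and number 3 highest in each group. The dimmer Egr1 probe set did not follow this order, at 46.2, 73.9 and 30.4 in EGFP-high samples and 27.2, 71.4 and 36 in EGFP-negative cells. Nor did the dimmer Dusp6 probe set, which was below the filter (37.6, 24.7 and 32.7 in EGFP-high samples, 18.6, 33.3 and 21.9 in EGFP-negative cells). In the rest of the feedback and target list, Dusp1, Myc, Spred2 and the brighter Fos probe set rose from number 1 to number 3 in each group. Spry4 fell from number 1 to number 3 in each group. The Ccnd1 and Etv4 probe sets and the dimmer Fos probe set followed neither order. Standard errors of the 3 probe sets given first were 0.53, 0.68 and 0.83 without the replicate number in the fit. With it as a block they were 0.18, 0.21 and 0.45, and none of the 3 was called (limma adjusted p = 0.5, 0.374 and 0.572). Over all 14 tested probe sets of the feedback and target list the median standard error was 0.25 without the block and 0.18 with it. The block also changed results outside this list: 5.19% of all tested probe sets were called without it and 10.4% with it. Whether the fall in standard error was larger in this list than over all tested probe sets was not tested.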
